A study of Mus musculus with 24 samples.

Results

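Making ribosomes takes a large set of nucleolar proteins, and 42 mouse genes for such proteins are described here in CD4 T cells with and without TRIM28, a corepressor that silences chromatin. They were chosen by name for their function, with earlier results of these data known. Among these results was the lower level without TRIM28 after 24 h of stimulation. Some encode subunits and a cofactor of RNA polymerase I or core proteins of the small nucleolar ribonucleoproteins (snoRNPs). Others encode abundant nucleolar proteins, or assembly factors of the small and the large ribosomal subunit. Of the 42 genes, 39 had a probe set of their own among the 22180 genes tested. The other 3 shared their probe sets with other genes and have no value here: Fbl, the methyltransferase of the box C/D snoRNPs, shared one with Tulp4, the large subunit factor Mrto4 with a pair of its pseudogenes, and the small subunit factor Tsr1 with Srr.

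The cells were naive CD4 T cells of TRIM28 knockout mice (KO) and of their wild-type littermates (WT), pulled down with magnetic beads and then sorted. They were taken before stimulation (0 h) or after 4, 24 or 72 h on bound anti-CD3 with anti-CD28 in the medium, which mimics antigen and costimulation. The 24 Affymetrix arrays make 8 groups, KO and WT at each of the 4 times, with 3 arrays in each. The sources used here do not give how or in which cells the Trim28 gene was deleted, or whether equal numbers mark 1 animal. The p-values therefore rest on array-to-array spread that may in part be technical. Each group mixes male and female arrays (below), so this spread also holds sex differences, which the main fit does not model. Every value is on the log2 scale, as the authors' normalization gave it, and a difference between groups is a log2 fold change with its standard error (SE).

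A resting T cell makes few ribosomes. On activation it grows before it divides, and for this RNA polymerase I transcribes the ribosomal RNA (rRNA) genes in the nucleolus, snoRNPs guide the chemical modification of the long precursor RNA, and helicases, GTPases and scaffold proteins fold and cut it while ribosomal proteins are added. Separate groups of factors build the small and the large subunit. MYC, a transcription factor that activation induces, is known to drive many of these genes through the E-box, the DNA element CACGTG.

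The arrays carried their labels' genotype, since Trim28 differed between KO and WT by -2.62 (SE 0.127, adjusted p = 1.17e-13), -3.10 (SE 0.127, adjusted p = 7.82e-15), -3.58 (SE 0.127, adjusted p = 2.53e-16) and -3.09 (SE 0.127, adjusted p = 3.46e-15) at 0, 4, 24 and 72 h. The mean of 9 CD4 T cell markers lay between 9.84 and 10.57 on all arrays. It was higher in KO without overlap at 24 h, with 10.16 to 10.26 in KO and 9.98 to 10.05 in WT. The same held at 72 h, with 10.01 to 10.13 in KO and 9.84 to 9.87 in WT. Past the threshold, 4 of the 9 markers were higher in KO at 24 h and 4 at 72 h, against 0 at 0 and 4 h and 1 lower at 0 h. The markers did not move together at 24 h. Cd4 itself was lower in KO, with 10.71, 10.57 and 10.54 on KO arrays, against 10.86, 10.82 and 10.73 on WT arrays. Cd2 had a group mean of 8.93 in KO and 8.15 in WT, and Cd3e, Cd3d and Cd3g were also higher in KO. Cd5, Cd28, Lat and Zap70 had group means of 11.40, 9.11, 10.315 and 9.87 in KO and 11.45, 9.05, 10.305 and 9.82 in WT. The mean of 12 B cell markers was higher in KO at every time by group means, with 3.99 to 4.55 in KO and 3.59 to 3.85 in WT at 24 h and 3.98 to 4.49 in KO and 3.66 to 3.77 in WT at 72 h, and 3, 0, 1 and 0 of these markers passed the test in KO at 0, 4, 24 and 72 h. Of 12 myeloid markers, 4, 3, 0 and 0 were higher past the threshold in KO at these times, with a mean at 24 h of 3.06 to 3.26 in KO and 2.98 to 3.11 in WT. Of 5 natural killer markers 2 were lower in KO at 72 h, with a mean of 3.17 to 3.38 in KO and 3.85 to 4.13 in WT, 1 of 2 CD8 T cell markers was lower in KO at 24 and at 72 h, and 0 of 3 erythroid and platelet markers differed past the threshold between KO and WT at any time with limma. The part of these cells in the results below was not tested, and fewer cells of a type cannot be told from less RNA per cell. Arrays numbered 3 held the Y-linked transcripts Kdm5d and Eif2s3y and little Xist in both genotypes, so array 3 was male at each time and arrays 1 and 2 female. KO array 1 stood somewhat apart: its mean over the 39 genes was the lowest of the KO arrays at 0, 4 and 24 h. It also had the highest B cell marker mean of the KO arrays at each time, with 4.55 at 24 h against 3.99 and 4.23. Its myeloid marker mean was the highest of the KO arrays at 4 and 24 h, but not at 0 and 72 h.

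The mean over the 39 genes gives the course of the set. At 0 h it was 7.65, 7.71 and 7.70 on KO arrays, against 7.66, 7.71 and 7.73 on WT arrays. At 4 h the arrays had risen to 8.90, 9.07 and 9.05 in KO and to 9.06, 9.14 and 9.20 in WT. At 24 h the mean was 8.77, 8.89 and 8.95 in KO, below all WT arrays, which had 9.26, 9.20 and 9.19. The order was turned at 72 h, with 8.75, 8.68 and 8.71 in KO and 8.64, 8.61 and 8.59 in WT, again without overlap. By group mean the WT level was highest at 24 h, where its arrays overlapped those of 4 h by a little, and the KO level at 4 h. Gene by gene, 26 were at their highest at 4 h in KO and 16 in WT, 9 in KO and 22 in WT were so at 24 h, and 4 in KO and 1 in WT at 72 h. These times are by group mean alone, without a test or a count over all genes. Some gaps were small, such as 9.26 at 4 h and 9.31 at 24 h for Pes1 in WT, and 10.38 and 10.32 for Nop58 in KO.

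**Figure D1:**
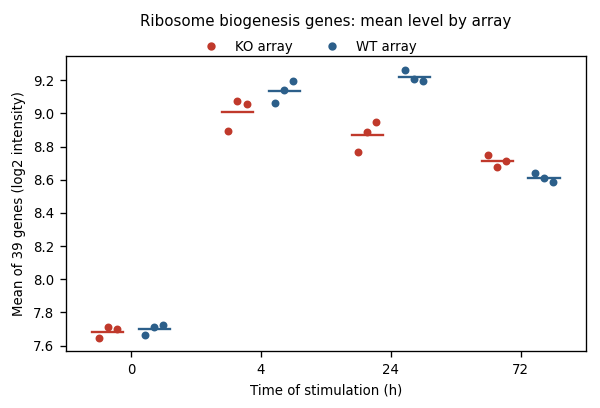
Mean log2 intensity of the 39 genes on each of the 24 arrays (points) and the group mean (line) against the time of stimulation in hours, KO left of WT at each time. At 24 h the KO arrays lie between 8.77 and 8.95 and the WT arrays between 9.19 and 9.26, and at 72 h the KO arrays, at 8.68 to 8.75, lie above the WT arrays.

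Promoter sequences are shown for the 4 genes that were higher in KO than in WT at 72 h (described below), because 3 of the 4 hold the MYC E-box; they were picked after their values were seen. They span 250 bases before to 50 after the annotated start, run 5′ to 3′ along the gene, are from RefSeq on GRCm38.p6, and have the E-box in capitals. Grwd1 lies on the minus strand at chr7:45830740-45831039, Nop10 on the plus strand at chr2:112261676-112261975, Rrn3 on the plus strand at chr16:13780449-13780748, and Utp20 on the minus strand at chr10:88826765-88827064.
Grwd1: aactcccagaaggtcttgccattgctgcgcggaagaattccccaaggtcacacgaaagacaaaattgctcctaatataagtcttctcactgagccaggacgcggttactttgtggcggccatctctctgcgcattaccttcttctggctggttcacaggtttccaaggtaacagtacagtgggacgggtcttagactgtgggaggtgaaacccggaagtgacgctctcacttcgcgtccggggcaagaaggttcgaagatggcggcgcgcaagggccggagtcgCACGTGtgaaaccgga
Nop10: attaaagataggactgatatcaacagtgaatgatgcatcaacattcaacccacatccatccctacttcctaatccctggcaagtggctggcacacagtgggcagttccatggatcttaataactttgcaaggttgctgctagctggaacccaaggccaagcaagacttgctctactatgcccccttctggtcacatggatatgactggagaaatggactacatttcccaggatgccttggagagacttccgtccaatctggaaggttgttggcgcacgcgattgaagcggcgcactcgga
Rrn3: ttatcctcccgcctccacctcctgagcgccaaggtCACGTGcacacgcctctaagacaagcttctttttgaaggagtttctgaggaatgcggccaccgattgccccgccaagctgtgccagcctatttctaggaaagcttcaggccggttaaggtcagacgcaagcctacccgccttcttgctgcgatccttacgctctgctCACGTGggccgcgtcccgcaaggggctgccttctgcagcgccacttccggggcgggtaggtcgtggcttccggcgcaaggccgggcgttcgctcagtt
Utp20: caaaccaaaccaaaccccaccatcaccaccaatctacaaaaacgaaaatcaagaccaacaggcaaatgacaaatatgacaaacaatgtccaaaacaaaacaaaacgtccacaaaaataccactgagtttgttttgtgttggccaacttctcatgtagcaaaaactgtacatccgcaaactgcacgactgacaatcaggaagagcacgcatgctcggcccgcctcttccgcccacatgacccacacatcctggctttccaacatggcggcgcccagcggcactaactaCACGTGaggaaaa
Rrn3 holds 2 E-boxes, 215 and 48 bases before the start, that of Grwd1 begins 34 bases and that of Utp20 37 bases after it, and Nop10 holds none in this window. Of the 39 measured genes 36 are in the promoter table, and 8 of them (22.2%) hold CACGTG, against 8.1% of all 27025 genes there. CACGTG reads the same on both strands. A gene with several promoters counts as holding a motif if any of them does. The other 5 with an E-box are Imp4, Nop2, Pes1, Utp18 and Wdr43. The ETS core CCGGAAG, searched on both strands and with letters that cannot overlap an E-box, was in 16 (44.4%), against 9.9% of all genes there. A match is a description of letters, and the promoter GC content of the 36 genes had a median of 56.7%, against 52.7% for all genes there. At 24 h the difference between KO and WT had a median of -0.39 in the 8 genes with an E-box and -0.37 in the 28 without, and at 72 h of 0.15 and 0.09. The 8 include Grwd1, Rrn3 and Utp20, shown here for being higher at 72 h, so the 72 h medians give no separate support for a link with the E-box.

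All 39 genes were higher past the threshold after 4 h of stimulation in both genotypes. For all 39 the arrays of 4 h lay above those of 0 h, as they did for 19.4% of all genes in KO and 19.7% in WT. This is by the probe set used, as further sets of Nop56, and that of Ddx18 in WT, did not rise past the threshold. The median rise was 1.33 in KO and 1.48 in WT, against a median change of -0.004 over all genes in each. Of all genes, 15.1% rose past the threshold in KO and 16.8% in WT (limma with Benjamini-Hochberg adjustment over all genes, at 0.05, as in every such count here). In mean level each of the 39 lay above at least 73.4% of all genes. Shares over all genes, here and below, thus include many dimmer genes and are not matched for level. No difference between the KO and WT rises passed the threshold with limma (0 of 39, 7 of them smaller in KO at an unadjusted p below 0.05, and 1 past the threshold with dim genes left out of the fit), where 0.280% of all genes rose less in KO and 0.446% more. The shares of all genes given here and below are at the adjusted threshold. At an unadjusted p below 0.05 only the 39 genes were counted.

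Among the RNA polymerase I genes, Polr1b, the second-largest subunit, rose most. Polr1b had 7.90, 8.16 and 8.21 on KO arrays at 4 h and 6.16, 5.86 and 6.03 at 0 h, a rise of 2.07 (SE 0.095, adjusted p = 2.43e-15), and 8.23, 8.28 and 8.32 on WT arrays at 4 h and 6.14, 6.20 and 6.02 at 0 h, a rise of 2.15 (SE 0.095, adjusted p = 7.71e-16). The arrays of the 2 genotypes overlapped at 0 h. Polr1a, the largest subunit, rose by 0.67 in KO and 0.81 in WT, Polr1e by 1.01 and 1.15, and Rrn3, the cofactor that brings the polymerase to rRNA gene promoters, by 0.88 and 1.07. Polr1c, a subunit shared with RNA polymerase III, had the smallest rise of the 39 in both genotypes. Polr1c had 8.46, 8.57 and 8.56 on KO arrays at 4 h and 8.33, 8.11 and 8.18 at 0 h, a rise of 0.32 (SE 0.092, adjusted p = 0.00687), and 8.46, 8.43 and 8.63 on WT arrays at 4 h and 8.12, 8.14 and 8.36 at 0 h, a rise of 0.30 (SE 0.092, adjusted p = 0.0116). Its arrays of 4 h lay above those of 0 h by a small margin, and it went on rising to 24 h, by a further 0.60 (SE 0.092, adjusted p = 7.81e-06) in KO and 0.97 (SE 0.092, adjusted p = 2.35e-09) in WT.

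The largest rises among the assembly factors in WT were those of Noc3l, a large subunit factor, and Rrp12, which in yeast takes part in the export of subunits. Noc3l had 9.22, 9.41 and 9.37 on KO arrays at 4 h and 7.44, 7.38 and 7.36 at 0 h, a rise of 1.94, and 9.46, 9.53 and 9.56 on WT arrays at 4 h and 7.40, 7.41 and 7.27 at 0 h, a rise of 2.16. Rrp12 had 8.08, 8.18 and 8.21 on KO arrays at 4 h and 6.28, 6.33 and 6.46 at 0 h, a rise of 1.80, and 8.34, 8.47 and 8.43 on WT arrays at 4 h and 6.10, 6.21 and 6.58 at 0 h, a rise of 2.12. For both genes the WT arrays of 4 h lay above the KO arrays of 4 h. Noc3l then fell between 4 and 24 h, with changes of -0.80 in KO and -0.56 in WT, as did Ddx10, a helicase of the small subunit pathway, with -0.90 and -0.61. A different course was seen in the box H/ACA snoRNPs, which convert uridine to pseudouridine. Of their 4 proteins 3, the enzyme Dkc1 and the core proteins Nhp2 and Nop10, rose past the threshold again between 4 and 24 h in both genotypes. Nop10 rose by only 0.37 in KO and 0.33 in WT in the first 4 h and by 0.32 and 0.61 from then to 24 h.

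**Figure D2:**
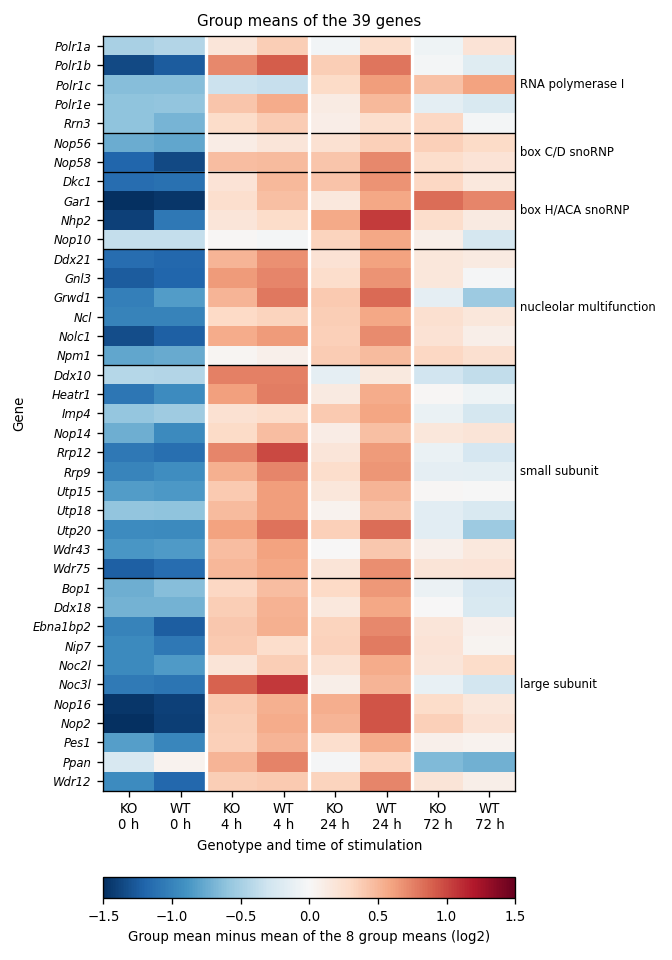
Group means of the 39 genes (rows, by role) in KO and WT at each time (columns), each gene centred on the mean of its 8 group means, on the log2 scale (colour). All 39 genes are higher at 4 h than at 0 h in both genotypes, and the KO column is below the WT column at 24 h for all 39.

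At 24 h the genes were lower in KO. This fall was known when they were chosen, so the counts are no separate support for it. With limma, 35 of the 39 fell past the threshold and 0 rose (0 also at an unadjusted p below 0.05), where 7.38% of all 22180 genes fell. All 39 differences were negative, from -0.51 to -0.09, with a median of -0.39, against -0.05 over all genes. The 3 KO arrays lay below the 3 WT arrays for 34 of the 39, and for 18.8% of all genes. Taken singly, KO arrays 1, 2 and 3 lay below all WT arrays for 38, 37 and 35 of the 39, and for 39%, 34.1% and 35.5% of all genes. The count depended on KO array 1, as 19 were past the threshold without it, with a median of -0.32. The count was also smaller after quantile normalization was run again, with a median of -0.30 against -0.01 over all genes. With KO array 2 (the KO array with the lowest B cell marker mean at each time) as the sole KO array 6 passed, with a median of -0.35, in a fit where that lone array is assumed to vary like the arrays of the other groups.

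**Figure D3:**
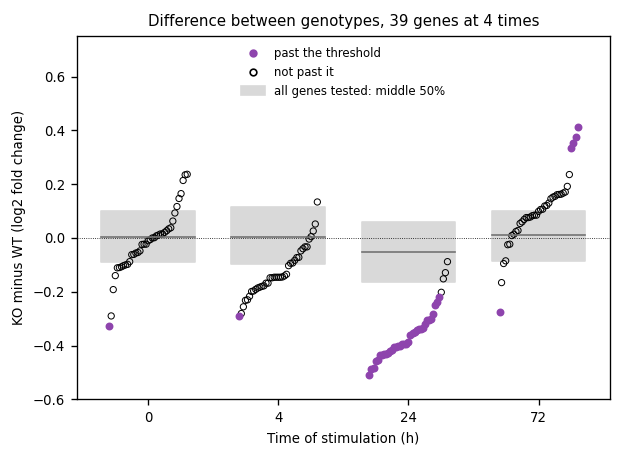
KO minus WT log2 fold change of each of the 39 genes at 4 times of stimulation, ordered by size within a time, with filled points past the threshold. The grey box holds the middle 50% of all 22180 genes and its line their median. At 24 h 35 genes are filled, all below 0, and at 72 h 4 are filled above 0 and 1 below.

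In the RNA polymerase I group, 4 of 5 genes were lower past the threshold at 24 h. Polr1b was 7.56, 7.75 and 7.89 on KO arrays, against 8.19, 8.19 and 8.13 on WT arrays. The KO arrays all lay below the WT arrays, which were close to each other, and the difference was -0.43 (SE 0.095, adjusted p = 0.00314) with limma. Polr1a was 8.38, 8.53 and 8.59 on KO arrays, against 8.63, 8.87 and 8.91 on WT arrays, a difference of -0.30 (SE 0.081, adjusted p = 0.0139). WT array 1 came close to the highest KO array for Polr1a. Polr1c differed by -0.34 (SE 0.092, adjusted p = 0.015), and Polr1e by -0.35 (SE 0.111, adjusted p = 0.0372), although WT array 2 lay within the KO arrays for Polr1e. Rrn3 was 8.18, 8.31 and 8.36 on KO arrays, against 8.53, 8.35 and 8.43 on WT arrays. The lowest WT array for Rrn3 was level with the highest KO array, and the difference of -0.15 (SE 0.075, adjusted p = 0.223) did not pass the test.

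The snoRNP proteins differed in how far they were from WT. Nop58, which with Nop56 forms the core of box C/D snoRNPs, was 10.23, 10.31 and 10.43 on KO arrays, against 10.47, 10.79 and 10.62 on WT arrays. No KO array reached a WT array, and the difference was -0.30 (SE 0.071, adjusted p = 0.00504). Its partner Nop56 was 10.70, 10.74 and 10.93 on KO arrays, against 10.91, 10.89 and 10.95 on WT arrays, where KO array 3 lay among the WT arrays, and the difference of -0.13 (SE 0.064, adjusted p = 0.228) did not pass. All 4 box H/ACA genes were lower past the threshold, the largest difference being that of Nhp2, with 8.92, 9.14 and 9.07 on KO arrays, against 9.70, 9.45 and 9.45 on WT arrays. Every KO array for Nhp2 was well below the lowest WT array, a difference of -0.49 (SE 0.086, adjusted p = 0.000416). Dkc1 was 9.61, 9.78 and 9.78 on KO arrays, against 10.00, 9.97 and 9.94 on WT arrays, a difference of -0.25 (SE 0.062, adjusted p = 0.00866). Nop10 was 10.31, 10.29 and 10.34 on KO arrays, against 10.67, 10.56 and 10.43 on WT arrays, a difference of -0.24 (SE 0.068, adjusted p = 0.0203). The KO arrays lay below the WT arrays for both, WT array 3 being the closest to KO, and Gar1 differed by -0.43 (SE 0.111, adjusted p = 0.0111).

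Of the 6 nucleolar proteins with several tasks, 5 were lower past the threshold. Ddx21, an RNA helicase that acts in rRNA transcription and processing, was 10.00, 10.07 and 10.20 on KO arrays, against 10.57, 10.43 and 10.45 on WT arrays. The groups were apart for this gene, and Ddx21 differed by -0.40 (SE 0.064, adjusted p = 0.00016). Grwd1, whose yeast counterpart is a chaperone of ribosomal protein L3, was 7.34, 7.49 and 7.50 on KO arrays, against 7.86, 7.94 and 7.90 on WT arrays, a difference of -0.46 (SE 0.093, adjusted p = 0.00169). Gnl3, the GTPase nucleostemin, was 8.98, 9.15 and 9.22 on KO arrays, against 9.48, 9.65 and 9.43 on WT arrays, again with the groups apart, a difference of -0.40 (SE 0.080, adjusted p = 0.00125). Nolc1, a chaperone of snoRNPs, differed by -0.35 (SE 0.097, adjusted p = 0.0185), and Ncl, nucleolin, by -0.22 (SE 0.070, adjusted p = 0.0408) with overlapping arrays. Npm1, nucleophosmin, was 11.16, 11.15 and 11.10 on KO arrays, against 11.08, 11.33 and 11.26 on WT arrays. WT array 1 was the lowest of the 6 for Npm1, and its difference of -0.09 (SE 0.065, adjusted p = 0.474) was the smallest of the 39 and did not pass.

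Of 11 small subunit factors 10 were lower past the threshold. Wdr75 had the largest difference of the 39 genes, and with Wdr43, Heatr1 and Utp15 it belongs to the subcomplex that binds the precursor RNA first. Wdr75 was 8.86, 9.10 and 9.21 on KO arrays, against 9.67, 9.57 and 9.47 on WT arrays. The lowest WT array stood above the highest KO array, and the difference of -0.51 (SE 0.079, adjusted p = 8.64e-05) put KO at 70.1% of WT. Wdr43 was 9.62, 9.80 and 9.90 on KO arrays, against 10.12, 10.22 and 10.17 on WT arrays, a difference of -0.40 (SE 0.060, adjusted p = 6.5e-05). Heatr1 was 8.90, 8.91 and 9.07 on KO arrays, against 9.47, 9.39 and 9.29 on WT arrays, a difference of -0.43 (SE 0.065, adjusted p = 6.99e-05). The KO arrays of both lay below all of their WT arrays, and KO array 1 was the lowest. Utp15 differed by -0.34 (SE 0.086, adjusted p = 0.0102). Utp20, a large scaffold protein, was 8.69, 8.73 and 8.86 on KO arrays, against 9.32, 9.24 and 9.17 on WT arrays, a difference of -0.48 (SE 0.088, adjusted p = 0.000569). Rrp12 differed by -0.45 (SE 0.107, adjusted p = 0.00573), Rrp9, a protein of the U3 snoRNP, by -0.41 (SE 0.101, adjusted p = 0.00829), and Utp18, Nop14 and Ddx10 by -0.39, -0.34 and -0.28. Imp4, also of the U3 snoRNP, was 9.37, 9.44 and 9.40 on KO arrays, against 9.69, 9.53 and 9.60 on WT arrays. Its KO arrays lay below its WT arrays, but the difference of -0.20 (SE 0.090, adjusted p = 0.169) did not pass.

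All 11 large subunit factors were lower past the threshold, between -0.30 and -0.43. Nop2, a methyltransferase of the large subunit rRNA, was 9.45, 9.56 and 9.58 on KO arrays, against 10.12, 9.85 and 9.93 on WT arrays. WT array 1 was the highest and the groups were apart, with a difference of -0.43 (SE 0.082, adjusted p = 0.000882). Ebna1bp2, also a large subunit factor in yeast, was 7.50, 7.60 and 7.58 on KO arrays, against 7.96, 7.95 and 7.95 on WT arrays, and here the WT arrays were nearly level and the difference was -0.39 (SE 0.078, adjusted p = 0.00131). Pes1, Bop1 and Wdr12, which form 1 complex needed for the large subunit, differed by -0.30 (SE 0.076, adjusted p = 0.00941), -0.36 (SE 0.078, adjusted p = 0.00285) and -0.40 (SE 0.091, adjusted p = 0.00392). The remaining factors differed by -0.42 for the helicase Ddx18, -0.43 for Nip7, -0.32 and -0.42 for Noc2l and Noc3l, which bind each other in yeast, and -0.40 for Nop16. Ppan was 8.23, 8.21 and 8.43 on KO arrays, against 8.78, 8.52 and 8.58 on WT arrays, with the groups apart, a difference of -0.34 (SE 0.095, adjusted p = 0.0205).

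**Figure D4:**
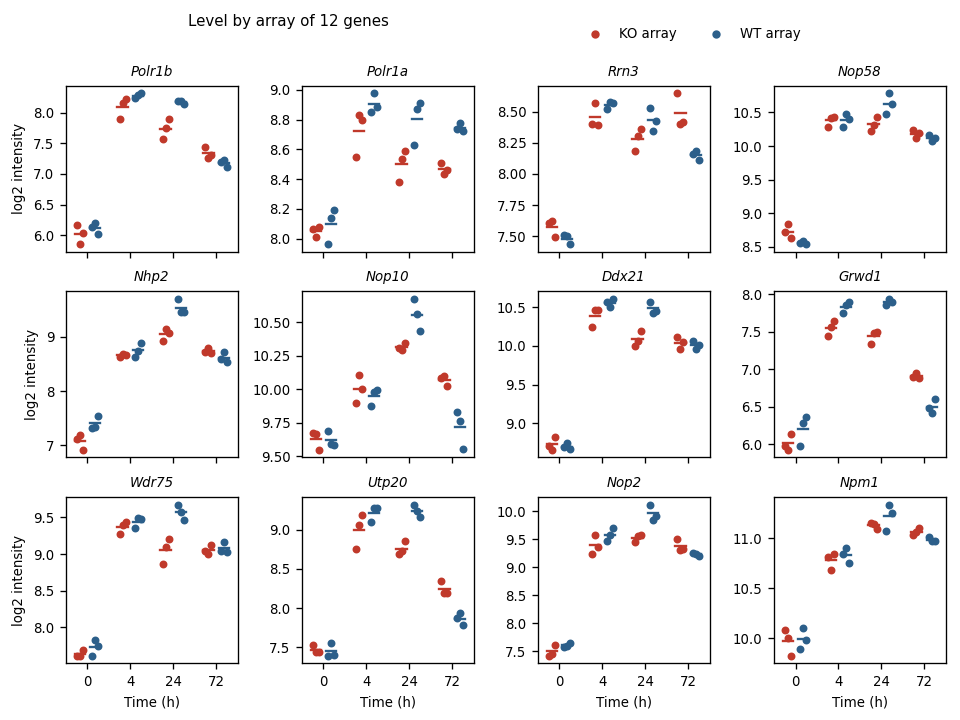
Log2 intensity on each array (points) with the group mean (line) of 12 of the genes against the time of stimulation in hours, KO left of WT, each panel with its own vertical scale. Wdr75, Nhp2 and Ddx21 have all KO arrays below all WT arrays at 24 h, Npm1 overlaps there, and Grwd1, Nop10, Rrn3 and Utp20 have all KO arrays above all WT arrays at 72 h.

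Genes that had risen more in WT by 4 h tended to differ more at 24 h. Across the 39 genes, Spearman's rho between the WT rise at 4 h and the KO minus WT difference at 24 h was -0.63, a description over genes in one set of samples, which are not independent replicates. The mean level over all arrays also went with that difference, with a rho of 0.47, so that brighter genes tended to differ less.

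The differences were smaller before 24 h. At 4 h, 35 of 39 differences were below 0, with a median of -0.15 against 0.003 over all genes, and all KO arrays lay below all WT arrays for 15 genes, as they did for 6.90% of all genes. Only Dkc1 passed the threshold with limma (1 of 39 lower, where 0.834% of all genes were, and 0 higher, with 14 lower and 0 higher at an unadjusted p below 0.05). The 0.834% is at the adjusted threshold and is no measure for the 14. Dkc1 was 9.46, 9.40 and 9.63 on KO arrays, against 9.81, 9.70 and 9.86 on WT arrays, without overlap, a difference of -0.29 (SE 0.062, adjusted p = 0.00545). KO array 1 was the lowest of the KO arrays in the mean of the genes at 4 h, and without it the median was -0.09. At 0 h the median was -0.01, and 1 of 39 genes was lower past the threshold in KO, against 0.577% of all genes, and 0 higher (4 lower and 4 higher at an unadjusted p below 0.05). That gene was Nhp2, with 7.12, 7.19 and 6.92 on KO arrays, against 7.32, 7.35 and 7.55 on WT arrays. Its groups were apart, and the difference was -0.33 (SE 0.086, adjusted p = 0.039). The call of Nhp2 at 0 h was lost without KO array 1 or 3, or WT array 2 or 3.

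Between 4 and 24 h the 2 genotypes took different courses in the counts. In KO 5 genes rose and 14 fell past the threshold, where 15.3% of all genes rose and 13.0% fell, with a median of -0.17 against 0.015 over all genes. In WT 13 rose and 6 fell, where 21.2% of all genes rose and 11.5% fell, with a median of 0.07 against 0.05 over all genes, and these medians became -0.02 and -0.02 after quantile normalization was run again. The 5 that rose in KO were Polr1c, Nhp2, Npm1, Nop10 and Dkc1, which rose in WT too. The small subunit factors were 8 of the 14 that fell in KO, and 4 of these factors fell in WT. The KO and WT steps differed past the threshold for 2 genes, Nip7 and Wdr75, both lower in KO (limma, 2 of 39, where 1.58% of all genes were lower, 0 higher, and 17 lower and 0 higher at an unadjusted p below 0.05).

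Nip7, a factor of large subunit processing, had 7.97, 8.21 and 8.13 at 24 h and 7.95, 8.24 and 8.24 at 4 h on KO arrays, a step of -0.04 (SE 0.103, adjusted p = 0.844), against 8.60, 8.49 and 8.52 at 24 h and 7.88, 7.98 and 8.17 at 4 h on WT arrays, a step of 0.53 (SE 0.103, adjusted p = 0.000178). The difference between the steps was -0.57 (SE 0.146, adjusted p = 0.0371). Wdr75 had 8.86, 9.10 and 9.21 at 24 h and 9.27, 9.39 and 9.44 at 4 h in KO, a step of -0.31 (SE 0.079, adjusted p = 0.00306), against 9.67, 9.57 and 9.47 at 24 h and 9.36, 9.49 and 9.47 at 4 h in WT, a step of 0.13 (SE 0.079, adjusted p = 0.245). Its steps differed by -0.44 (SE 0.112, adjusted p = 0.0356). The count of 2 went down to 0 or up to 4 when 1 array was left out, and both calls rest on single arrays. The count was 0 when KO array 2 or 3 or WT array 1 of the 4 h groups, or KO array 1 or WT array 1 or 2 of the 24 h groups, was left out. It was 1 without WT array 2 of the 4 h group, and without KO array 2 or WT array 3 of the 24 h groups. Without KO array 1 at 4 h it was 4.

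At 72 h most genes lay higher in KO. Of the differences, 33 of 39 were above 0, with a median of 0.10 against 0.01 over all genes, and 14 genes had all KO arrays above all WT arrays, as 12.5% of all genes did. Past the threshold with limma, 4 of 39 were higher, where 2.56% of all genes were, and 1 was lower, where 3.78% were.

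Grwd1 was 6.90, 6.95 and 6.89 on KO arrays, against 6.49, 6.41 and 6.60 on WT arrays. Its KO arrays all stood above the highest WT array, a difference of 0.41 (SE 0.093, adjusted p = 0.00507). Utp20 was 8.35, 8.19 and 8.19 on KO arrays, against 7.87, 7.93 and 7.79 on WT arrays, a difference of 0.38 (SE 0.088, adjusted p = 0.00662). Nop10 was 10.09, 10.10 and 10.03 on KO arrays, against 9.83, 9.77 and 9.55 on WT arrays, a difference of 0.35 (SE 0.068, adjusted p = 0.000888). In each of these genes the KO arrays lay above the WT arrays. Rrn3 was 8.65, 8.40 and 8.42 on KO arrays, against 8.16, 8.19 and 8.12 on WT arrays. KO array 1 stood above the other KO arrays, which were also above WT, and the difference was 0.34 (SE 0.075, adjusted p = 0.00448). These are the 4 genes whose promoters are printed above. Polr1a went the other way, with 8.51, 8.44 and 8.46 on KO arrays, against 8.73, 8.78 and 8.72 on WT arrays. The KO arrays lay below the WT arrays for Polr1a, with a difference of -0.28 (SE 0.081, adjusted p = 0.0386), and Polr1a was the only gene of the 39 lower past the threshold at both 24 and 72 h. The count of 4 was 2 without KO array 1 at 72 h, and the call of Polr1a was lost without any 1 of the 6 arrays.

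Between 24 and 72 h the genes fell more in WT than in KO. In WT 35 of 39 fell past the threshold and 0 rose with limma (0 also at an unadjusted p below 0.05), where 15.8% of all genes fell, with a median of -0.65 against -0.06 over all genes. In KO 9 fell, where 8.04% of all genes fell, and 1 rose, where 9.63% did, with a median of -0.15 against -0.01. The 9 became 14 after quantile normalization was run again and 5 with arrays 1 and 2 alone. The 9 that fell in KO were Ppan (-0.65), Grwd1 (-0.53), Utp20 (-0.52), Imp4 (-0.49), Polr1b (-0.40), Rrp9 (-0.39), Bop1 (-0.39), Nhp2 (-0.31) and Nop10 (-0.25). A second probe set of Ppan had a step of -0.29 in KO, which did not pass. Gar1, of the box H/ACA snoRNPs, rose in KO, with 7.51, 7.50 and 7.48 at 72 h and 6.63, 6.87 and 6.94 at 24 h, a step of 0.69 (SE 0.111, adjusted p = 4.2e-05). In WT Gar1 had 7.43, 7.35 and 7.40 at 72 h and 7.20, 7.17 and 7.36 at 24 h, a step of 0.15 (SE 0.111, adjusted p = 0.391) that did not pass.

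The difference between these steps passed the threshold for 26 of 39 genes, all with the smaller fall or the larger rise in KO, where 4.90% of all genes were so called. All 39 differences of steps were above 0, with a median of 0.48 against 0.06 over all genes. By role these were 2 of 5 RNA polymerase I genes, 1 of 2 box C/D, 4 of 4 box H/ACA, 4 of 6 nucleolar, 7 of 11 small subunit and 8 of 11 large subunit genes. The steps use the same 24 h and 72 h arrays as the differences between genotypes given above and add no separate evidence for them. Without KO arrays 1 at all times, 16 of 39 passed.

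Grwd1 had the largest difference of steps. Its step was -0.53 (SE 0.093, adjusted p = 0.000115) in KO, against -1.40 (SE 0.093, adjusted p = 6.94e-12) in WT, and the steps differed by 0.87 (SE 0.132, adjusted p = 8.37e-05). Utp20 had a step of -0.52 (SE 0.088, adjusted p = 6.86e-05) in KO, against -1.38 (SE 0.088, adjusted p = 2.79e-12) in WT, a difference of 0.86 (SE 0.124, adjusted p = 4.52e-05). Both were the steepest falls of the 39 in WT. For Nop2, whose levels at 72 h were 9.51, 9.31 and 9.32 in KO and 9.26, 9.23 and 9.21 in WT, the steps of -0.15 in KO and -0.73 in WT differed by 0.58 (SE 0.116, adjusted p = 0.00188). Polr1a had steps of -0.03 in KO and -0.06 in WT, the smallest difference of the 39.

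**Figure D5:**
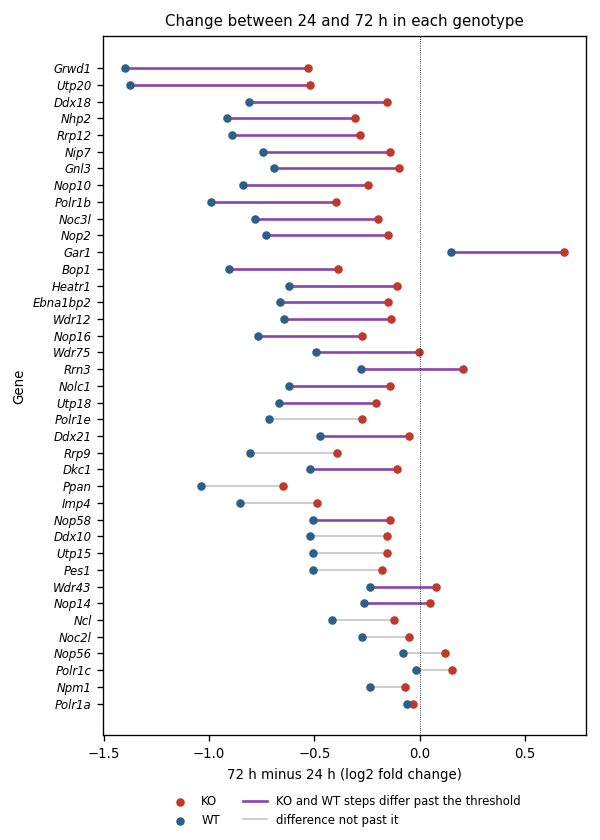
Change between 24 and 72 h (72 h minus 24 h, log2 fold change) of each of the 39 genes in KO and in WT, joined by a line that is purple where the 2 changes differ past the threshold and grey otherwise. The KO point lies right of the WT point for all 39 genes, and 26 lines are purple.

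At 72 h the genes were still above their level before stimulation. In KO 37 of 39 were higher than at 0 h past the threshold, where 21.1% of all genes were, with a median of 1.08 against 0.005 over all genes, and in WT 36 were, where 22.2% of all genes were, with a median of 1.03 against -0.01. Ppan, a large subunit factor, was below its 0 h level in both, with -0.43 (SE 0.095, adjusted p = 0.000527) in KO and -0.77 (SE 0.095, adjusted p = 1.25e-07) in WT, but this depends on the probe set. A second probe set of Ppan was 1.23 higher at 72 h than at 0 h in KO and 1.18 higher in WT, and differed between KO and WT at 24 h by -0.54, against -0.34 for the set used. Nop56, Npm1, Ddx18 and Ddx21 also have further probe sets, all dimmer than the ones used. For Nop56 the brighter of these was lower at 72 h than at 0 h past the threshold, with -0.51 in KO and -0.68 in WT. The dimmer was higher, with 0.76 and 0.45, and neither rose past the threshold at 4 h in either genotype. That of Ddx18 had 0.22 in KO and -0.14 in WT at 72 h against 0 h, not past the threshold, and those of Npm1 and Ddx21 were higher. At 24 h those of Ddx18 and Ddx21 were lower in KO as well, with differences of -0.40 (adjusted p = 0.0247) and -0.65 (adjusted p = 0.00229), that of Npm1 differed by -0.38 (adjusted p = 0.143), and those of Nop56 by -0.13 and -0.17 (adjusted p = 0.698 and 0.618).

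Other genes of the pathway were counted from lists made by function, also with the fall at 24 h known. Of 90 further assembly factors, 66 were lower past the threshold in KO at 24 h, where 7.38% of all genes were, and 0 higher, with a median of -0.35 against -0.05 over all genes. At 72 h 7 of the 90 were higher, where 2.56% of all genes were, and 1 lower, where 3.78% were. Of the 90, 54 had steps between 24 and 72 h that differed past the threshold, all with the smaller fall or larger rise in KO, as 4.90% of all genes had. Gtpbp4, a GTPase of the large subunit pathway, differed at 24 h by -0.44 (SE 0.061, adjusted p = 2e-05) and the nucleolar protein Nol8 by -0.42 (SE 0.068, adjusted p = 0.000141). Of 10 other RNA polymerase I genes, 5 were lower and 0 higher at 24 h, among them Taf1a, a subunit of the promoter selectivity factor, with -0.54 (SE 0.105, adjusted p = 0.00105), and Polr1d, a subunit shared with RNA polymerase III, with -0.42 (SE 0.093, adjusted p = 0.00371). All 7 measured host genes of snoRNAs, whose introns carry the guide RNAs, were lower in KO at 24 h, with a median of -0.48, among them Snhg5 with -0.51 (SE 0.092, adjusted p = 0.000505) and Snhg6 with -0.48 (SE 0.086, adjusted p = 0.000487). At 72 h 3 of the 7 host genes were lower in KO and 0 higher.

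The genes for the ribosomal proteins themselves were counted too. Of 64 such genes, 12 were lower past the threshold in KO at 24 h, where 7.38% of all genes were, and 0 higher, with a median of -0.09 against -0.05 over all genes. At 4 h against 0 h, 12 of the 64 rose and 7 fell in KO, where 15.1% of all genes rose and 16.0% fell, and 11 rose and 16 fell in WT, where 16.8% rose and 17.8% fell. Rpl3 differed at 24 h by -0.46 (SE 0.076, adjusted p = 0.000189) and Rpl26 by -0.94 (SE 0.170, adjusted p = 0.000487). The probe set of Rpl26 was dim, with 4.51, 4.33 and 4.53 on KO arrays, against 5.70, 5.06 and 5.44 on WT arrays. The median gene had a mean level of 3.72. These genes have many near-identical copies, so their probe sets are uncertain.

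Myc, the gene of the factor known to drive many of the 39, had 10.17, 10.32 and 10.33 on KO arrays, against 10.76, 10.72 and 10.67 on WT arrays at 24 h. The KO arrays lay below the WT arrays, with a difference of -0.44 (SE 0.088, adjusted p = 0.00137). Myc differed by -0.54 (SE 0.088, adjusted p = 0.000346) at 0 h and -0.33 (SE 0.088, adjusted p = 0.0312) at 4 h, and at 72 h by -0.19 (SE 0.088, adjusted p = 0.297), which did not pass. The difference at 4 h was -0.19 (adjusted p = 0.257) without KO array 1, and its call was also lost without WT array 2 or 3. At 72 h, with KO arrays 1 left out at all times, it was -0.25 (adjusted p = 0.0166) and passed. At 0 h Myc was thus lower in KO while the median of the 39 genes differed by -0.01, and whether its level bears on theirs was not tested.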

How the data were processed

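RNA of naive CD4 T cells was run on 24 Affymetrix arrays, 3 in each of 8 groups of genotype and time, which the sample titles give. The authors deposited log2 values that, per the submitters' processing notes, came from RMA (oligo package, R 3.1.0). RMA corrects background, gives all arrays 1 distribution and summarises probes, so a change shared by all genes is hidden and low signals are compressed. The sources used here give no filters or batches, and precision is limited by having 3 arrays in a group.

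Of 41345 probe sets, 23521 had 1 gene symbol in the platform annotation, 1814 several and 16010 none. Symbols were updated by Entrez ID through a RefSeq table (GRCm38.p6, names only), and the probe set with the highest mean over all arrays stood for a gene. Array medians ran from 3.59 to 3.76, and 0 columns were identical. A model of 8 group means was fitted to all 22180 genes with limma 3.58.1 (R 4.3.3; eBayes with a trend, 24.8 degrees of freedom in all), with 15 contrasts, each adjusted by the Benjamini-Hochberg method at 0.05, two-sided. It was tested on simulated data.

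The members, lists and tests were chosen with earlier results of these data known, and the fall at 24 h was among them. Members given by array were, in each role, those with the 2 lowest and the highest adjusted p at 24 h, those with the 3 largest and 3 smallest rises at 4 h in WT, and up to 3 called in KO against WT at each other time. Gar1, Nip7, Utp20 and Wdr75 were added after their values were seen. Alternatives changed the probe set rule, filter on dim genes, normalization, scaling, variance model, samples in the fit, a replicate block and arrays left out. Equal replicate numbers were checked for pairing. Over 12 comparisons the correlations of deviations from the group means ran from -0.02 to 0.24. All 3 were over 0.1 only between 72 and 24 h in KO (0.16, 0.19 and 0.18), so by that rule the numbers count as pairs there alone. The cut at 0.1 cannot exclude pairing elsewhere, since 32 of 36 arrays compared correlated best with their own number.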

Additional observations from a re-analysis of the deposited data

Results flagged for a closer look

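The steps between times differed between KO and WT for 28 pairs of gene and step by limma's interaction term, with a Benjamini-Hochberg adjusted p below 0.05. Between 4 and 24 h the KO step was lower for Nip7 (-0.57) and Wdr75 (-0.44), whose calls were lost with single arrays left out. Between 24 and 72 h the KO step was higher for 26 genes. Among RNA polymerase I genes these were Polr1b (0.59) and the cofactor Rrn3 (0.49), and among snoRNP proteins Nop58 (0.37), Dkc1 (0.41), Gar1 (0.54), Nhp2 (0.61) and Nop10 (0.59). The nucleolar proteins were Grwd1 (0.87), Gnl3 (0.60), Nolc1 (0.48) and Ddx21 (0.42). Small subunit factors were Utp20 (0.86), Rrp12 (0.61), Heatr1 (0.51), Wdr75 (0.49), Utp18 (0.46), Wdr43 (0.32) and Nop14 (0.31). Large subunit factors were Ddx18 (0.66), Nip7 (0.60), Noc3l (0.59), Nop2 (0.58), Bop1 (0.52), Ebna1bp2 (0.51), Wdr12 (0.51) and Nop16 (0.49). The calls of Gar1, Nolc1, Nop14, Nop16, Nop58 and Wdr43 were each lost when certain single arrays were left out.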

How the results depend on the processing

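Among the differences between KO and WT and the differences of steps, no called value of a gene changed sign (0 reversed) under the alternatives run. The signs of single genes in the steps within 1 genotype were not checked. Values are counts of the 39 genes past the threshold. The count lower in KO at 0 h (1) was 2 after quantile normalization was run again and 0 without a variance trend, with arrays 1 and 2 alone, with only the compared groups in the fit, with KO array 2 alone and with KO arrays 1 left out at all times, the last chosen after seeing the data, and 0 to 1 with 1 array left out. At 4 h (1) it was 0 with only the compared groups. At 24 h (35) it was 6 with KO array 2 alone, 21 with KO arrays 1 left out at all times, and 19 (without KO array 1) to 34 with 1 array left out. At 72 h the count higher (4) was 2 with arrays 1 and 2 alone, 1 with KO array 2 alone, and 2 to 4 with 1 array left out, and the count lower (1) was 0 without a trend, with arrays 1 and 2 alone, with KO array 2 alone and without any 1 array. The count that fell in KO between 24 and 72 h (9) was 14 after quantile normalization and 5 with arrays 1 and 2 alone. The steps to 4 h that were lower in KO (0) were 1 with dim genes left out and 0 to 1 with 1 array left out. The steps between 4 and 24 h (2) were 0 after quantile normalization, without a trend, with arrays 1 and 2 alone and with only the compared groups, 1 with KO arrays 1 left out, and 0 to 4 with 1 array left out. The steps between 24 and 72 h (26) were 16 with KO arrays 1 left out and 20 to 30 with 1 array left out. Fewer arrays enter those fits; the cause of the other shifts was not tested. With the replicate number as a block, the counts at 0, 4 and 24 h were 1, 1 and 35, and those at 72 h 4 higher and 1 lower, and between 72 and 24 h in KO, where the numbers count as pairs, 10 fell; 32 of 36 arrays compared correlated best with their own number, a hint from the data, not the design. The median at 24 h lay between -0.30 and -0.44 in all settings. It was -0.30 after quantile normalization was run again, where Ddx10, Dkc1, Ncl, Nolc1, Nop10, Polr1a, Polr1c, Polr1e, Ppan and Utp15 no longer passed. Of the single values at 24 h (the 39 genes, Trim28 and Myc under each alternative), 592 stayed on their side of the threshold and 105 no longer passed.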
